A study of Homo sapiens with 8 samples.

Results

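The genes described here encode the enzymes that oxidise, reduce and conjugate foreign and reactive compounds: aldehyde dehydrogenases (ALDH), glutathione transferases (GST and the microsomal MGST), aldo-keto reductases (AKR), cytochromes P450 (CYP), UDP-glucuronosyltransferases (UGT) and sulfotransferases (SULT). They were chosen by name, as every row whose gene symbol follows the naming pattern of these families. This gave 115 rows, of which 2 were left out, so that 113 of the 30434 rows of the count table are members. Outside GST and MGST the pattern asks for a number, a letter and a number, so a symbol such as ALDH2 is not matched. Counts and sums by family cover the members only. The 8 libraries come from SKBR3, an established line of human breast carcinoma that carries extra copies of ERBB2, the gene of HER2. The 4 control libraries are labelled wild type, and the labels do not say whether these cells carried a control vector. The 4 knockdown libraries come from a stable line made by lentiviral transduction with 3 short hairpin RNAs against FOXA1, a forkhead transcription factor that opens chromatin in luminal breast cells. Both kinds of cells grew in the same serum-containing medium, with no inducer or drug named. Nothing says that the replicates were separate cultures, so p-values measure only the spread between these libraries, which may be technical. In such bulk samples, fewer cells with a transcript and less transcript per cell cannot be told apart.

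Detoxification runs in stages. Cytochromes P450 add oxygen to a substrate with electrons passed on by the reductase POR. Aldo-keto reductases and aldehyde dehydrogenases turn carbonyl groups into alcohols or acids, and transferases then attach glutathione, glucuronic acid or sulfate so that the product can be exported. The same families also handle the body's own signals: ALDH1A enzymes make retinoic acid, CYP26 enzymes destroy it, CYP11A1 and CYP19A1 make steroids, and CYP51A1 makes sterols. The liver is the best known site of most of them, and breast epithelium expresses a smaller set.

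The label check came first. In order of replicate number, FOXA1 had 4180, 4239, 4071 and 4397 counts in the control libraries and 89, 87, 83 and 92 in the knockdown libraries, which left 2.06% of the control level. The 6 markers fixed for SKBR3 (ERBB2, KRT8, KRT18, KRT19, EPCAM and KRT7) together took between 18290 and 20372 CPM (counts per 1000000 after scaling) in control and between 11485 and 12376 CPM in knockdown. The sum hides opposite changes: ERBB2, the defining gene of the line, was left at 18.3% of its control level (7308 CPM ± 365 to 1340 CPM ± 52.9), and KRT19 and KRT7 also fell, to 27.3% and 28.9%, while KRT18, KRT8 and EPCAM rose, to 149.5%, 124.4% and 126.1%. Library totals ran from 19087878 to 23786684 counts, at which 3 counts stand for 0.123 to 0.153 CPM. Of the 6 hepatocyte markers, ALB had at most 5 counts in any library. The summed level of that list was 4.37 to 5.27 CPM in control, mostly from SERPINA1, and 0.128 to 0.407 CPM in knockdown. The fibroblast list went from between 5.27 and 6.98 CPM to between 10.8 and 12.0, and the leukocyte list went from between 5.45 and 7.24 CPM to between 0.972 and 2.08, with PTPRC at 3 or fewer counts in every library. COL3A1 and PDGFRB rose in the fibroblast list while COL1A1 fell, and the control sum of the leukocyte list was mostly CD68, which fell to 11.9%. The endothelial list summed to between 19.8 and 22.4 CPM in all libraries, but VWF fell from 5.22 CPM ± 0.584 to 0.845 CPM ± 0.218 and CDH5 rose from 16.1 CPM ± 0.295 to 20.1 CPM ± 1.36. What part these low signals have in the results was not tested.

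The comparison asked how these enzyme genes differed between FOXA1 knockdown and control cells. Of the 113 members, 66 had enough counts to be tested, and 27 had 3 or fewer counts in every library. At an adjusted p under 0.05 in edgeR's quasi-likelihood test, 28 members were higher and 31 lower in knockdown, and 7 did not pass. Of all 16430 tested genes, 77.1% passed the same rule (39.4% higher and 37.7% lower). A change of at least 2-fold was called for 36 members, 19 higher and 17 lower, or 54.5% of those tested, where the share among all tested genes was 28.3% (14.9% higher and 13.4% lower). Groups did not overlap in CPM for 57 members, beside 72.0% of all tested genes. The median log2 fold change of the tested members was -0.15, and of all tested genes 0.02, and the median size of the change without its sign was 1.56 against 0.51 on the log2 scale.

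Several members went between near silence and clear expression. CYP2S1, CYP11A1, CYP26A1, CYP26B1 and SULT4A1 had 3 or fewer counts in every control library and averaged at least 50 in knockdown, as did 1.07% of all tested genes. GSTP1 and CYP4Z1 went the other way, as did 0.456% of all tested genes. The summed level of all members was 2202 CPM ± 25.0 in control, against 1593 CPM ± 29.6 in knockdown (mean ± SD, n = 4 each). Genes this low in one group had enough counts to be tested only through the other, so their direction was fixed by the filter. Of all tested genes, 39.4% were higher and 37.7% lower. By family, 5 of 14 tested members of CYP families 1 to 4 were higher and 7 lower. Of the other CYP genes 6 of 8 were higher and 2 lower, with CYP11A1, CYP26A1 and CYP26B1 tested only through knockdown. Among AKR genes 5 of 8 were higher and 2 lower, among ALDH genes 8 of 16 were higher and 8 lower, and among GST and MGST genes 3 of 12 were higher and 7 lower. The only tested UGT gene was lower, and of 7 SULT genes 1 was higher and 4 were lower. These counts include further genes tested only through a single group, whose direction the filter fixed. Through knockdown these were CYP2S1, CYP4F3, AKR1C1, AKR1E2, ALDH1A2, ALDH8A1 and SULT4A1, and through control CYP2J2, CYP4Z1, ALDH1A1 and GSTP1. CYP27B1 would not have passed the filter through control alone, nor CYP4F8 through knockdown alone.

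**Figure D1:**
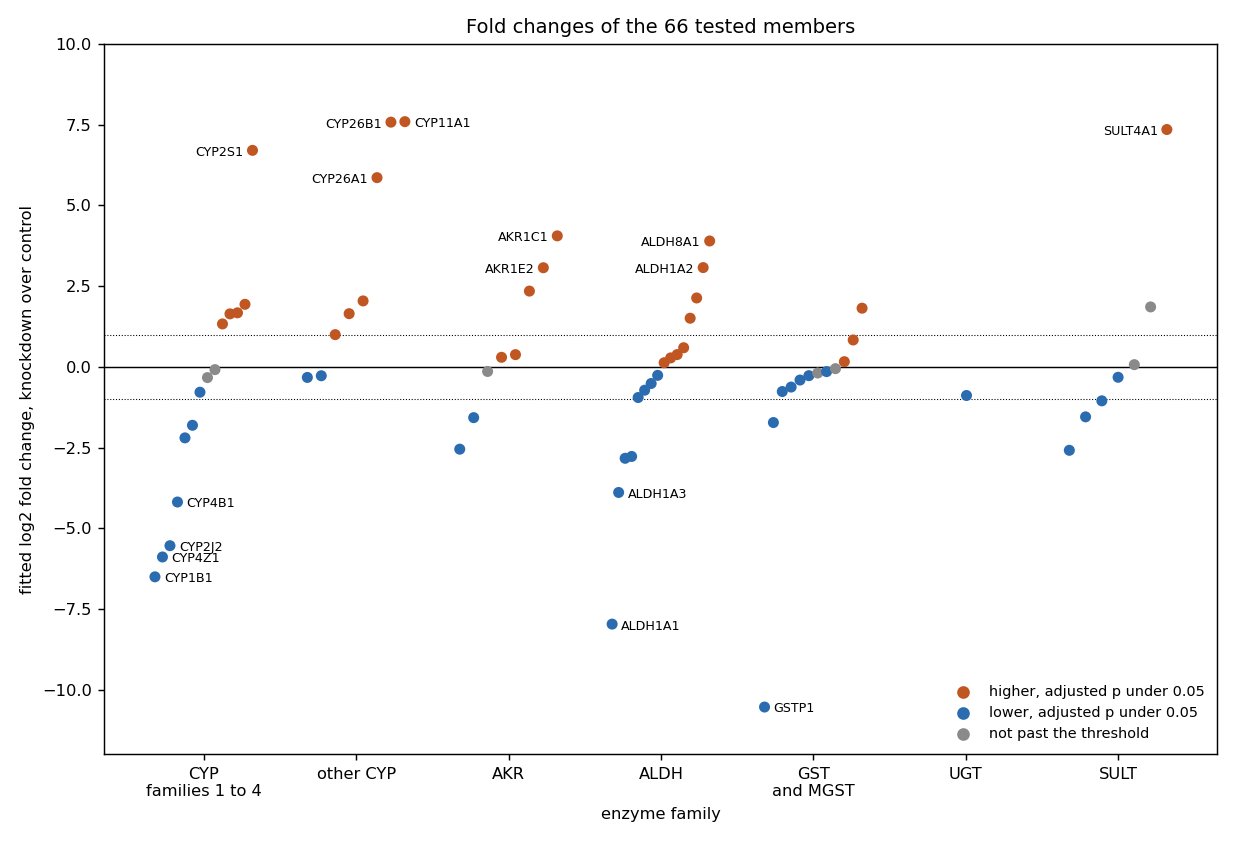
Fitted log2 fold change of each of the 66 tested members, knockdown over control, by enzyme family; each point is a gene, coloured by its call, and dotted lines mark a 2-fold change. GSTP1 (-10.54) and ALDH1A1 (-7.97), both at 0 counts in knockdown, lie lowest, and CYP11A1 (7.59), CYP26B1 (7.58) and SULT4A1 (7.35) lie highest; fitted values of genes at or near 0 counts depend on the prior count of the fit.

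Genes for retinoic acid handling changed at each step. ALDH1A1 and ALDH1A3 were called lower, and ALDH1A2, CYP26A1 and CYP26B1 higher, where 37.7% and 39.4% of all tested genes were. ALDH1A2, CYP26A1 and CYP26B1 had enough counts to be tested only through the knockdown libraries, and ALDH1A1 only through control. Their directions were therefore fixed by the filter on low counts. Retinol is oxidised to retinal by RDH10, reduced back by DHRS3, and turned into retinoic acid by ALDH1A1, ALDH1A2 and ALDH1A3, after which CRABP2 and FABP5 carry the acid and CYP26A1 and CYP26B1 degrade it. ALDH1A3 (ENSG00000184254.17, chromosome 15, 100877714 to 100916626, plus strand, by GENCODE 29 on the GRCh38 build) had 2544, 2608, 2414 and 2631 counts in control and 173, 204, 137 and 182 in knockdown. Every knockdown library lay far below every control library. Its level fell 14.9-fold, from 115.7 CPM ± 2.19 to 7.78 CPM ± 0.724 (SD over 4 libraries each), with a log2 fold change of -3.89 (SE 0.0687, adjusted p = 7.25e-27). An antisense gene shares 1585 exon bases with ALDH1A3 and averaged 131.75 counts, and use of strand is not stated. ALDH1A1, the enzyme best known as a stem cell marker, had 31, 22, 33 and 38 control counts and was at 0 throughout the knockdown group, at least 10.4-fold lower against 3 counts per library. ALDH1A2 moved up from 2, 1, 2 and 3 counts to 17, 21, 13 and 21, a ratio of summed counts of 8.89 (exact 95% interval 4.28 to 21.4, for counting error only). Per kilobase of merged exon, ALDH1A2 stood at 0.0933 CPM ± 0.0161 in knockdown and ALDH1A3 at 1.35 CPM (n = 4 each), so ALDH1A2 remained the lower in level.

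CYP26B1 (chromosome 2, 72129238 to 72148038, minus strand) had 3, 1, 1 and 0 counts in control and 299, 291, 222 and 253 in knockdown. That is 11.9 CPM ± 0.590 in knockdown (SD, n = 4) and a ratio of summed counts of 210.5 (exact 95% interval 89.9 to 650). CYP26A1 (chromosome 10, 93073475 to 93077890, plus strand) had 2, 0, 1 and 1 counts in control and 75, 56, 58 and 74 in knockdown, a ratio of 65.0 (exact 95% interval 25.1 to 240). The adjusted p was 1.94e-20 for CYP26B1 and 7.46e-14 for CYP26A1. CYP26C1, the remaining gene of that family, had at most 3 counts in any library and was not tested. The promoter of CYP26A1 is a textbook retinoic acid target, so its window is shown, from 250 bases before to 50 after a RefSeq start (chr10:93073643-93073942, GRCh38.p14, plus strand). Capitals mark the retinoid receptor motif AGTTCA, here read on the opposite strand as TGAACT, in 2 copies with 5 bases between them.
CYP26A1: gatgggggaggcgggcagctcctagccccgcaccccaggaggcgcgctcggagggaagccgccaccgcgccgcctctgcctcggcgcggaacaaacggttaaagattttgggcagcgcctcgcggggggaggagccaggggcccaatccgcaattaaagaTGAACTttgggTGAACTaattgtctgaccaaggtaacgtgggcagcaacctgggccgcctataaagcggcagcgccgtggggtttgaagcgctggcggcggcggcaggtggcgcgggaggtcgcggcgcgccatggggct
This direct repeat begins 90 bases before the start. The motif AGTTCA was found on either strand in 10.45% of all 35116 promoter windows of the same length, and a match is a description of letters, not a binding site. The other window of CYP26A1 held no match.

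The companion genes of the same route, from lists of pathway genes outside the name patterns, moved as well. CRABP2 had 5582, 5770, 5913 and 5768 counts in control and 26, 27, 25 and 24 in knockdown, which is 261.7 CPM ± 13.8 and 1.15 CPM ± 0.0830 (SD over 4 libraries) and a log2 fold change of -7.83. The groups were far apart, with 1.11 to 1.27 CPM in every knockdown library. FABP5 rose from 8.46 CPM ± 0.613 to 42.1 CPM ± 2.15. DHRS3 fell from 85.1 CPM ± 3.60 to 9.68 CPM ± 0.329. RDH10, named after its values were seen, fell from 131.1 CPM ± 5.77 to 69.3 CPM ± 2.04. The receptor gene RARA fell from 117.1 CPM ± 5.94 to 31.5 CPM ± 0.798 (log2 fold change -1.89), and RARG from 103.5 CPM ± 5.32 to 16.2 CPM ± 1.29 (log2 fold change -2.68). The 50 tested genes nearest to each also leaned down, with median log2 fold changes of -0.67 around RARA and -0.87 around RARG.

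**Figure D2:**
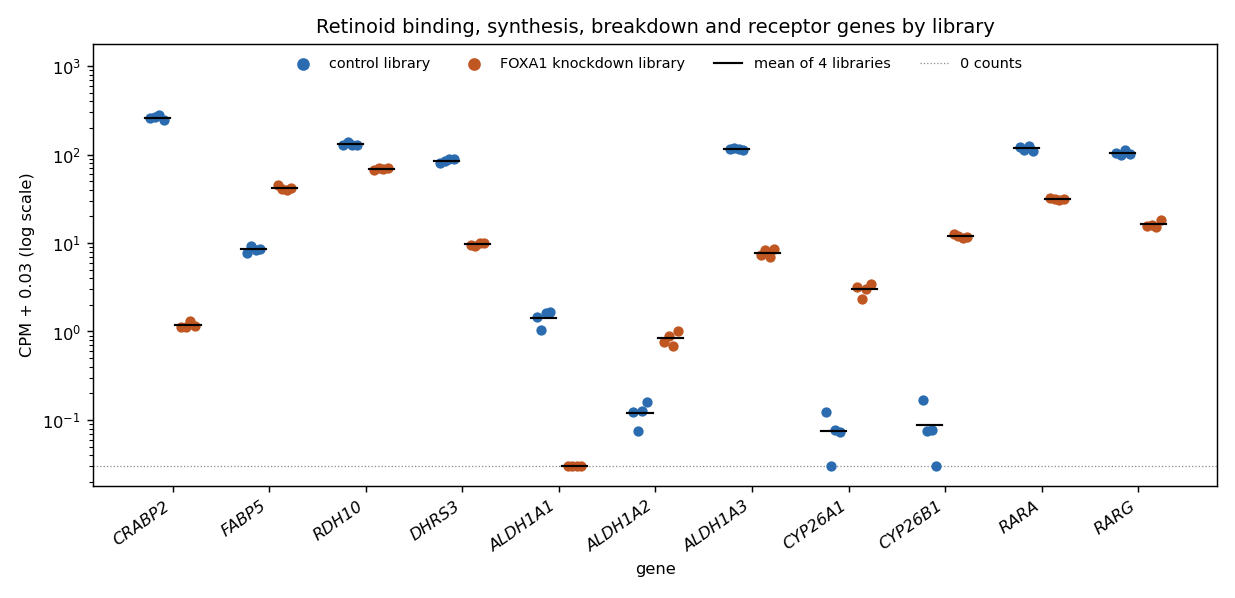
CPM plus 0.03 on a log axis for 11 retinoid genes, with each of the 4 control and 4 knockdown libraries as a point and the mean of each group as a bar; the dotted line marks 0 counts. Control and knockdown do not overlap for any of the 11 genes: FABP5, ALDH1A2, CYP26A1 and CYP26B1 are higher in knockdown and the other 7 are lower, with ALDH1A1 at 0 in all 4 knockdown libraries.

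The CYP1 enzymes, which oxidise polycyclic aromatic compounds and estrogens and are switched on by the aryl hydrocarbon receptor (AHR), moved in opposite directions. CYP1B1 (ENSG00000138061.12, chromosome 2, 38066973 to 38109902, minus strand) had 2698, 2702, 2353 and 2791 counts in control and 34, 26, 32 and 25 in knockdown. It had the highest control level per kilobase among CYP families 1 to 4 and fell 90.3-fold, to 1.32 CPM ± 0.260 from 119.6 CPM ± 5.39 (SD over 4 libraries each), with a log2 fold change of -6.50 (SE 0.144, adjusted p = 2.68e-28). CYP1A1 (chromosome 15, 74719542 to 74725610, minus strand) had 118, 116, 102 and 135 counts in control and 383, 403, 330 and 403 in knockdown. It rose 3.20-fold, from 5.33 CPM ± 0.402 to 17.1 CPM ± 1.08 (mean ± SD, n = 4 each). Per kilobase of merged exon, the control levels were 1.55 CPM ± 0.117 for CYP1A1 and 19.9 CPM ± 0.897 for CYP1B1, and the knockdown levels 4.97 CPM ± 0.314 and 0.220 CPM ± 0.0433, so the order of the genes reversed. CYP1A2, its neighbour on the same chromosome, had 25, 22, 21 and 48 counts in control and 86, 97, 87 and 95 in knockdown, a log2 fold change of 1.64 with control replicate 4 nearest to the knockdown libraries. The promoter window of CYP1A1 (chr15:74725479-74725778, GRCh38.p14, minus strand) is shown because it holds the core motif GCGTG, to which AHR and its partner ARNT are known to bind, in capitals.
CYP1A1: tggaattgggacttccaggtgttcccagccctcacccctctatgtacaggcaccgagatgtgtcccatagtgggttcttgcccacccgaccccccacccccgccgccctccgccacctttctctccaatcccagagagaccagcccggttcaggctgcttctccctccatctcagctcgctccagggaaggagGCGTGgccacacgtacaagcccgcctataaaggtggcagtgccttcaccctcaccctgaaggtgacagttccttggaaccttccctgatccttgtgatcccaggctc
The match begins 57 bases before the start, and 36.54% of all promoter windows hold GCGTG on either strand.

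AHR itself, the receptor, had 998, 1054, 896 and 1075 counts in control and 312, 379, 276 and 314 in knockdown, a 3.18-fold fall from 45.6 CPM ± 2.23 to 14.3 CPM ± 0.946 (mean ± SD, n = 4 each). ARNT rose from 51.8 CPM ± 2.20 to 74.8 CPM ± 1.33. Of 2 further AHR-responsive genes, named after their values were seen, the receptor's repressor AHRR went from 23, 14, 10 and 32 counts to 4, 4, 0 and 0, and TIPARP fell from 23.5 CPM ± 1.52 to 9.68 CPM ± 1.21 (mean ± SD, n = 4 each). NQO1, a quinone reductase under both AHR and NRF2 control, fell 8.84-fold, from 162.7 CPM ± 6.36 to 18.4 CPM ± 1.32. CYP1A1 and CYP1A2 rose where AHR, CYP1B1, AHRR, TIPARP and NQO1 fell. AHRR had enough counts to be tested only through the control libraries, so it could only be called lower. The P450 reductase POR changed little, from 327.1 CPM ± 15.6 to 290.3 CPM ± 7.46 (log2 fold change -0.17, adjusted p = 0.000132).

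**Figure D3:**
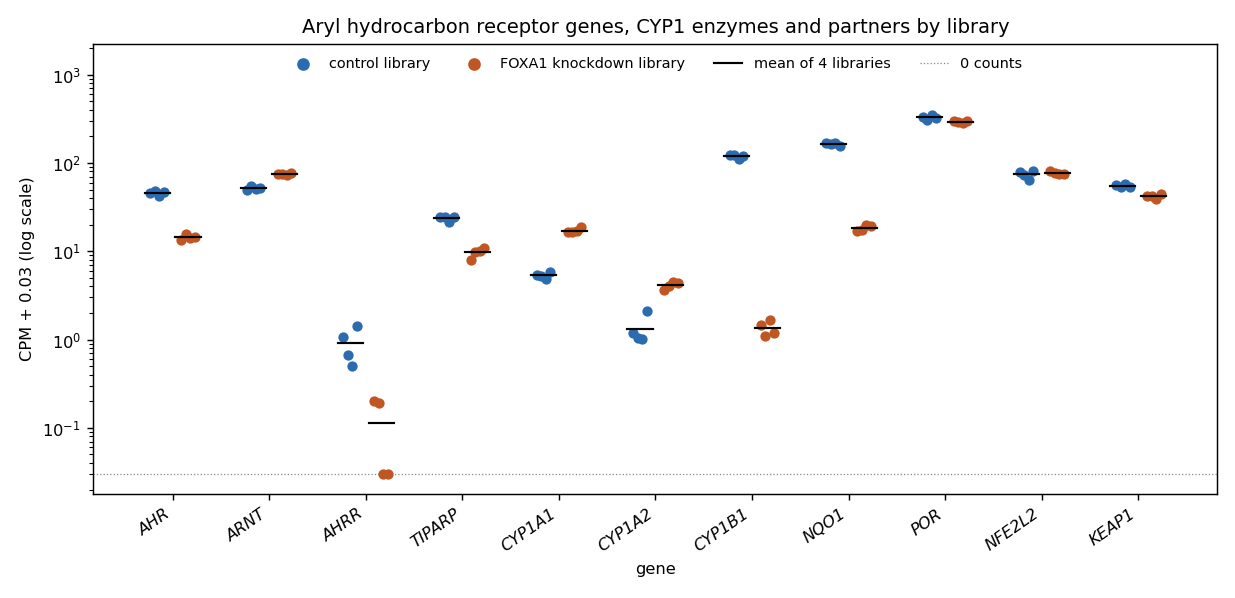
CPM plus 0.03 on a log axis for AHR, its partner and targets, POR, NFE2L2 and KEAP1, with a point per library and a bar at the mean of each group of 4; the dotted line marks 0 counts. CYP1A1 rises to between 16.3 and 18.6 CPM in knockdown while CYP1B1 drops to between 1.07 and 1.63 CPM, and the groups of NFE2L2 overlap.

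In CYP families 2 to 4, 6 enzymes were called lower in knockdown and 3 higher, where 37.7% and 39.4% of all tested genes were. CYP2S1 and CYP4F3 had enough counts to be tested only through the knockdown libraries, and CYP2J2 and CYP4Z1 only through control. The directions of these genes were fixed by the filter on low counts. CYP4F8, with 12, 9, 14 and 8 counts in knockdown, would not have passed that filter through its knockdown libraries alone. CYP2J2, an epoxygenase of arachidonic acid, had 251, 259, 228 and 251 counts in control and 3, 4, 8 and 6 in knockdown (log2 fold change -5.54, SE 0.349, adjusted p = 8.84e-20). CYP4B1, a fatty acid and xenobiotic hydroxylase, had 662, 621, 597 and 629 counts in control and 31, 41, 32 and 35 in knockdown, an 18.2-fold fall. CYP4Z1, a breast-enriched fatty acid hydroxylase that lies on chromosome 1 near CYP4B1, had 115, 141, 105 and 137 counts in control and 1, 3, 2 and 2 in knockdown, a ratio of summed counts of 63.0 (exact 95% interval 31.7 to 147). For all 3 genes the groups were widely separated. The vitamin D hydroxylase CYP2R1 fell from 11.9 CPM ± 0.797 to 3.39 CPM ± 0.0610, and CYP2U1 from 17.1 CPM ± 1.29 to 9.93 CPM ± 0.0767 (mean ± SD, n = 4 each).

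Among the genes that rose, CYP2S1, an extrahepatic P450, went from 0, 1, 0 and 1 counts to 67, 71, 56 and 69, a ratio of summed counts of 129.9 (exact 95% interval 35.6 to 1079). CYP4V2, a fatty acid hydroxylase, rose 2.53-fold, from 1.70 CPM ± 0.308 to 4.29 CPM ± 0.461 (mean ± SD, n = 4 each). The neighbouring CYP4F genes on chromosome 19 changed in opposite directions. CYP4F8 had 44, 45, 44 and 65 counts in control and 12, 9, 14 and 8 in knockdown, while CYP4F3 had 4, 4, 3 and 7 and then 18, 18, 17 and 18. The filter on low counts fixed the direction of CYP4F3, and CYP4F8 would not have passed it through knockdown alone. These are close paralogues, so the split of reads between them is uncertain; their summed level went from 2.44 CPM ± 0.443 to 1.29 CPM ± 0.204. CYP2D6 and CYP3A5, which metabolise many drugs in liver, were tested and did not pass (adjusted p = 0.361 and 0.614). The liver enzymes CYP2B6, CYP2C8 and CYP3A4 had at most 3 counts in any library.

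Of the CYP genes outside families 1 to 4, many of which act on steroids, sterols, vitamin D or retinoids, 6 of 8 tested members rose and the remaining 2 fell by less than 2-fold. Among all tested genes 39.4% were called higher. CYP11A1, CYP26A1 and CYP26B1 had enough counts to be tested only through the knockdown libraries, so they could only be called higher. CYP27B1, with 7, 15, 13 and 5 counts in control, would not have passed the filter on low counts through its control libraries alone. CYP11A1, which cleaves the cholesterol side chain to begin steroid synthesis (chromosome 15, 74337759 to 74367740, minus strand), had 0, 0, 0 and 3 counts in control and 172, 188, 168 and 154 in knockdown. Its level in knockdown was 7.67 CPM ± 0.635 (SD, n = 4), and the ratio of summed counts was 224.6 (exact 95% interval 76.5 to 1092; adjusted p = 4.76e-17). It lies near CYP1A1 and CYP1A2, and the 50 tested genes nearest to it had a median log2 fold change of -0.28. FDX1, the electron carrier of that enzyme, rose from 28.2 CPM ± 1.49 to 50.9 CPM ± 2.11, and FDXR, which reduces FDX1, fell from 16.3 CPM ± 1.38 to 9.28 CPM ± 0.708; both were named after their values were seen. CYP19A1, the aromatase that turns androgens into estrogens, had 31, 32, 24 and 29 counts in control and 120, 146, 114 and 105 in knockdown, a 4.13-fold rise with no overlap.

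Smaller rises were called for CYP27B1, which activates vitamin D, from 0.459 CPM ± 0.226 to 1.44 CPM ± 0.122, and for CYP8B1, a bile acid enzyme, from 1.04 CPM ± 0.138 to 2.08 CPM ± 0.280 (mean ± SD, n = 4 each). CYP27B1 shares 107 exon bases with METTL1, and CYP8B1 142 with ACKR2, which averaged 568.5 and 424.9 counts. CYP51A1, the lanosterol demethylase of cholesterol synthesis, had the highest level per kilobase of all members in both groups. It had 5180, 5334, 4941 and 5591 counts in control and 4506, 4573, 3749 and 4130 in knockdown, a fall from 238.7 CPM ± 3.45 to 190.2 CPM ± 1.94 (log2 fold change -0.33, adjusted p = 9.21e-10). CYP20A1, whose substrate is unknown, went from 11.7 CPM ± 0.582 to 9.60 CPM ± 0.867 (adjusted p = 0.0031).

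Aldo-keto reductases changed in both directions. AKR1A1, the general aldehyde reductase, had 3365, 3435, 3463 and 3562 counts in control and 1254, 1215, 1105 and 1121 in knockdown, a 2.97-fold fall from 157.0 CPM ± 5.08 to 52.8 CPM ± 2.73 (mean ± SD, n = 4 each; adjusted p = 2.72e-21). AKR1B10, which reduces retinal and other aldehydes, had 21, 13, 17 and 18 counts in control and 101, 98, 72 and 87 in knockdown, a 5.10-fold rise. Its neighbours on chromosome 7 did less: AKR1B1 rose from 2.98 CPM ± 0.347 to 3.90 CPM ± 0.606 with overlapping groups, and AKR1B15 did not pass (adjusted p = 0.362). AKR1C1, which inactivates progesterone, went from 0, 1, 2 and 2 counts to 32, 20, 23 and 17, and AKR1E2 nearby on chromosome 10 from 4, 5, 6 and 4 to 48, 37, 36 and 44. Both had enough counts to be tested only through the knockdown libraries, so they could only be called higher. The 50 tested genes nearest to each had a median log2 fold change of 0.56, beside 4.06 for AKR1C1 and 3.07 for AKR1E2. AKR1C2 (0 counts in control and 3 to 7 in knockdown) and AKR1C3 (0 to 1 and 1 to 6) were below the filter, and AKR1C genes are near-identical copies.

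The AKR7A genes, reductases of aflatoxin dialdehyde that lie side by side on chromosome 1, parted. AKR7A3 (19282558 to 19289250, minus strand) had 266, 264, 280 and 303 counts in control and 56, 52, 44 and 40 in knockdown, a 5.87-fold fall from 12.6 CPM ± 0.644 to 2.15 CPM ± 0.224. AKR7A2 (19303965 to 19312146, minus strand) rose from 34.3 CPM ± 2.86 to 42.1 CPM ± 1.58 (mean ± SD, n = 4 each; adjusted p = 2.75e-05). Summed, the pair stood at 46.9 CPM ± 3.38 in control libraries and at 44.2 CPM ± 1.42 after knockdown, and the libraries of the groups overlapped in that sum.

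Beyond the ALDH1A enzymes, the other 13 tested ALDH members were called as well, where 77.1% of all tested genes were. The ALDH1L paralogues differed in direction. ALDH1L1, the cytosolic formyl-folate dehydrogenase, had 189, 182, 179 and 201 counts in control and 612, 565, 477 and 506 in knockdown, a 2.84-fold rise (adjusted p = 1.13e-16). ALDH1L2, its mitochondrial counterpart, had 277, 306, 228 and 317 counts in control and 47, 44, 39 and 36 in knockdown, a 6.85-fold fall (adjusted p = 2.16e-17). Per kilobase of merged exon, the knockdown levels were 1.77 CPM ± 0.0944 for ALDH1L1 and 0.219 CPM ± 0.0187 for ALDH1L2, where in control ALDH1L1, at 0.621 CPM ± 0.0137, had been the lower. ALDH1L2 shares 145 exon bases with C12orf45 on the opposite strand.

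ALDH3B2, which oxidises lipid-derived aldehydes, had 2853, 2766, 2833 and 2961 counts in control and 383, 442, 390 and 404 in knockdown, a 7.11-fold fall from 129.6 CPM ± 3.90 to 18.2 CPM ± 1.49 (SD over 4 libraries each), which is -2.83 on the log2 scale (adjusted p = 7.7e-25). Its paralogue ALDH3B1, also on chromosome 11, rose from 28.7 CPM ± 1.16 to 34.8 CPM ± 1.25. ALDH3A2, the fatty aldehyde dehydrogenase, fell from 57.7 CPM ± 1.70 to 29.9 CPM ± 1.08. ALDH5A1, which ends the breakdown of GABA, rose 4.38-fold, with 45, 58, 59 and 37 counts in control and 227, 243, 201 and 215 in knockdown; GPLD1 shares 239 exon bases with it on the opposite strand. ALDH8A1, an enzyme of tryptophan breakdown, went from 2, 2, 2 and 5 counts to 46, 49, 38 and 40. It had enough counts to be tested only through the knockdown libraries, so it could only be called higher.

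The remaining 6 called ALDH genes changed by less than 2-fold. ALDH4A1, which completes proline breakdown, rose from 99.8 CPM ± 7.24 to 129.8 CPM ± 2.57, and ALDH1B1 rose from 13.2 CPM ± 0.850 to 19.9 CPM ± 0.711 (mean ± SD, n = 4 each). ALDH18A1, which begins proline synthesis, rose by a log2 fold change of 0.13 (adjusted p = 0.00623). ALDH6A1 of valine breakdown fell by 0.72 on the log2 scale, ALDH9A1 of carnitine synthesis by 0.52 and ALDH16A1 by 0.26. For all 6 genes the groups did not overlap. ALDH3A1, the corneal and AHR-induced member, had at most 1 count in any library.

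Among glutathione transferases, GSTP1, the pi-class enzyme of many epithelia and tumours, stood lowest. GSTP1 (ENSG00000084207.18, chromosome 11, 67583595 to 67586656, plus strand) had 184, 165, 179 and 210 control counts and none in knockdown, a fall from 8.37 CPM ± 0.647 (SD, n = 4) that is at least 61.7-fold against 3 counts per library (adjusted p = 7.02e-18). With 0 counts, a level of up to 0.153 CPM remains possible where the knockdown library is smallest. The 50 tested genes nearest to it had a median log2 fold change of -0.40. The promoter window of GSTP1 (chr11:67583562-67583861, GRCh38.p14, plus strand) is shown because the transcript went to 0; capitals mark a forkhead core TGTTTAC and an antioxidant response element core of the form TGACNNNGC.
GSTP1: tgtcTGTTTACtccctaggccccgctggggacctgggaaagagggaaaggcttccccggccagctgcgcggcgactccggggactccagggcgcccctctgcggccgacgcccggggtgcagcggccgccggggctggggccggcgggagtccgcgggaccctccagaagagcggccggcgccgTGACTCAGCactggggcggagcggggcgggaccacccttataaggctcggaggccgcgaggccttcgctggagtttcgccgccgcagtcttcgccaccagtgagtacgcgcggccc
The forkhead letters begin 246 bases and the other match 66 bases before the start. TGTTTAC occurs on either strand in 3.423% of all promoter windows and TGACNNNGC in 13.35%. The data hold no binding measurement at these letters.

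GSTM3 and GSTK1, with the highest transferase levels per kilobase, changed little. GSTM3, of the mu class, had 4986, 5252, 5187 and 5553 counts in control and 4833, 4499, 3941 and 4278 in knockdown, or 238.1 CPM ± 7.41 and then 197.1 CPM ± 9.07 (SD over 4 libraries each), which is -0.27 on the log2 scale (adjusted p = 3.26e-07). That call ended, at an adjusted p of 0.0503, when the shift of neighbouring genes was removed. GSTK1 of mitochondria and peroxisomes was at 132.3 CPM ± 6.67 and 127.3 CPM ± 3.73 and did not pass (adjusted p = 0.204). GSTM4 fell from 46.1 CPM ± 1.78 to 27.1 CPM ± 0.374, and GSTM2, which shares 375 exon bases with GSTM4, did not pass (adjusted p = 0.394). GSTA4, which conjugates the lipid peroxidation product hydroxynonenal, had 72, 77, 81 and 86 counts in control and 334, 278, 226 and 291 in knockdown, a 3.52-fold rise (adjusted p = 1.29e-14).

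The omega-class neighbours on chromosome 10 also differed: GSTO2 (104268873 to 104304945) fell from 7.42 CPM ± 0.772 to 2.24 CPM ± 0.200, while GSTO1 (104235356 to 104267459) went from 21.0 CPM ± 0.614 to 23.5 CPM ± 1.85 with overlapping groups (mean ± SD, n = 4 each; adjusted p = 0.0199). Of the microsomal enzymes, MGST3 rose from 58.2 CPM ± 2.78 to 103.6 CPM ± 4.45, MGST1 fell from 163.7 CPM ± 7.08 to 123.3 CPM ± 5.35, and MGST2 fell from 17.3 CPM ± 0.998 to 11.2 CPM ± 0.549. MGST3 and ALDH9A1 lie beside each other on chromosome 1 and moved in opposite directions. GSTZ1, of tyrosine breakdown, fell by 0.15 on the log2 scale (adjusted p = 0.0229). GSTA1, GSTA3, GSTM1, GSTM5 and GSTT2B did not pass the filter on low counts.

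**Figure D4:**
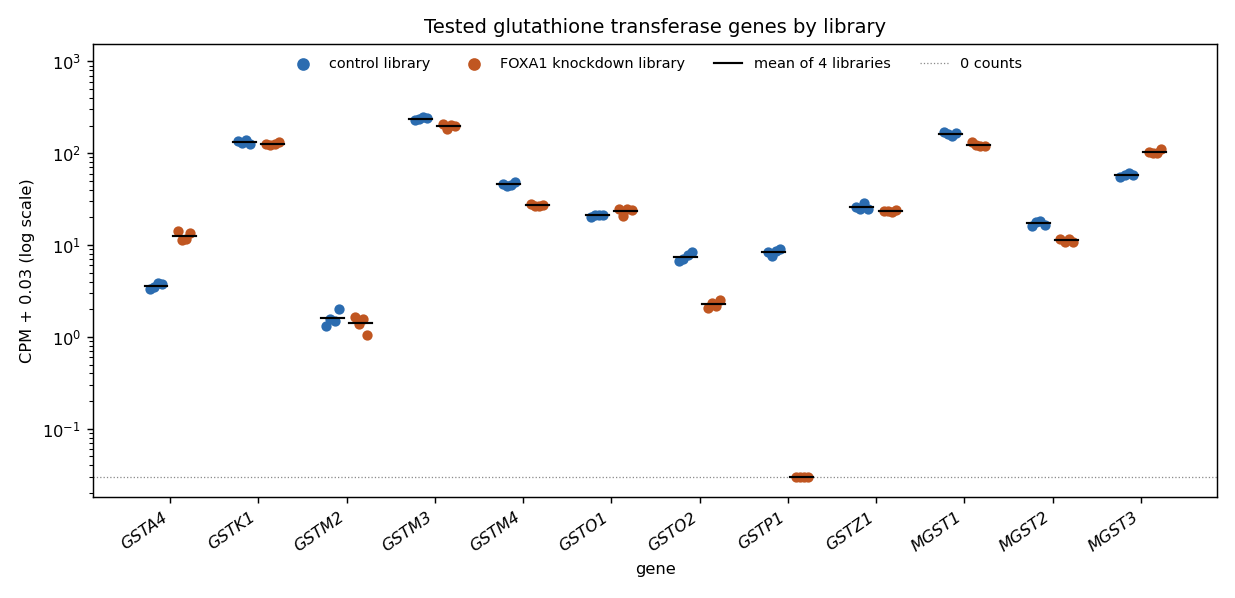
CPM plus 0.03 on a log axis for the 12 tested glutathione transferase genes, with a point per library and a bar at the mean of each group of 4; the dotted line marks 0 counts. GSTP1 drops to 0 in all 4 knockdown libraries, GSTA4 and MGST3 are higher in knockdown without overlap, and GSTK1 and GSTM2 overlap between the groups.

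The glucuronosyltransferase members were close to silent. Of 9 UGT members, 5 had 3 or fewer counts in every library and only UGT1A7 was tested. UGT1A7 had 96, 94, 84 and 107 counts in control and 58, 59, 39 and 55 in knockdown, a fall from 4.32 CPM ± 0.260 to 2.35 CPM ± 0.250 (mean ± SD, n = 4 each; adjusted p = 1.19e-06). All UGT1A genes share their last exons (UGT1A7 and UGT1A1 have 1478 exon bases in common), so the counts may belong to any of them. The 9 UGT members summed to 4.86 CPM ± 0.186 in control and 3.14 CPM ± 0.413 in knockdown. UGDH, which makes their cosubstrate UDP-glucuronic acid, was at 28.6 CPM in control and 38.2 CPM in knockdown on average, and was named after its values were seen.

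Of the 7 tested sulfotransferase genes, 4 were lower (37.7% of all tested genes were), 1 was higher and 2 did not pass. SULT1A1, which sulfates phenols, had 991, 1044, 1113 and 1141 counts in control and 543, 574, 483 and 492 in knockdown, a 2.07-fold fall from 48.7 CPM ± 3.17 to 23.5 CPM ± 0.801 (mean ± SD, n = 4 each). SULT1A2, a close copy beside it on chromosome 16, fell from 4.04 CPM ± 0.287 to 1.37 CPM ± 0.235. SULT2B1, which sulfates cholesterol and other sterols, fell 5.97-fold, from 10.9 CPM ± 0.363 to 1.82 CPM ± 0.411 (mean ± SD, n = 4 each; adjusted p = 3.2e-16). SULT1B1 of thyroid hormone sulfation fell by 0.32 on the log2 scale (adjusted p = 0.00274), a call that ended at 0.129 with the shift of neighbouring genes removed. SULT4A1, a brain-type member with no well established substrate, went the other way, from 1, 0, 3 and 0 counts to 197, 221, 167 and 159, a ratio of summed counts of 183.8 (exact 95% interval 71.5 to 676). SULT1E1, the estrogen sulfotransferase, had 3 to 5 counts in control and 0 to 1 in knockdown, below the filter.

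SULT1A3 and SULT1A4 are duplicated genes with almost the same sequence, and the split of counts between them differed from library to library. SULT1A3 had 551, 501, 453 and 564 counts in control and 732, 501, 599 and 356 in knockdown, and SULT1A4 had 21, 14, 96 and 45 and then 31, 182, 35 and 400. Where SULT1A4 was high, in knockdown replicates 2 and 4, SULT1A3 was low. Neither passed the test (adjusted p = 0.795 and 0.155). Their sum was 572, 515, 549 and 609 counts in control and 763, 683, 634 and 756 in knockdown, or 25.5 CPM ± 1.40 and 31.9 CPM ± 2.90 (mean ± SD, n = 4 each), with every knockdown library above every control library. The sum was chosen after the values were seen, and read-through genes that share up to 1811 exon bases with these copies were counted separately.

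**Figure D5:**
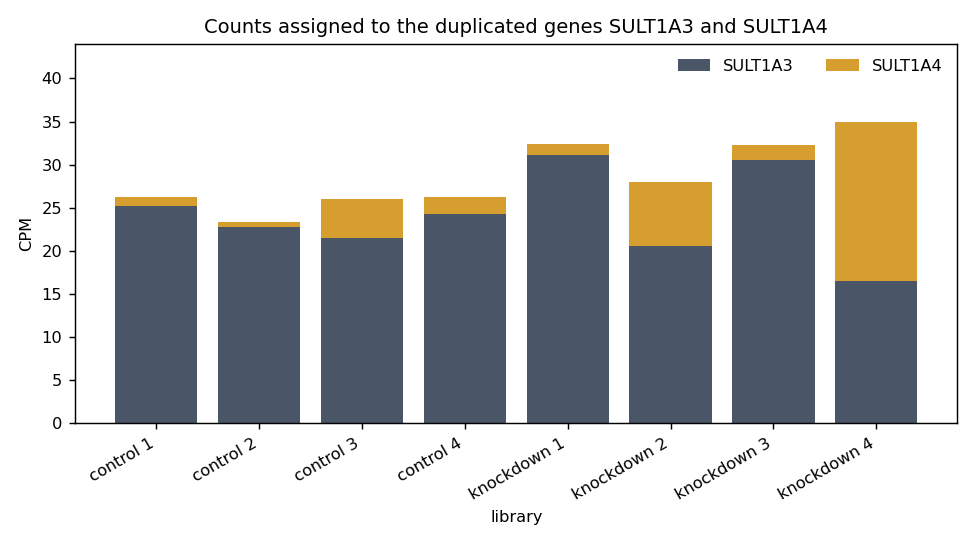
Stacked CPM of SULT1A3 and SULT1A4 in each of the 8 libraries. The mean height of the stack is 25.5 CPM in control and 31.9 CPM in knockdown, while the SULT1A4 part ranges from 0.636 to 18.5 CPM.

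Companion genes outside the name patterns were listed in 4 groups, of which 109 rows were tested. In all 28 were higher and 73 lower, beside 39.4% and 37.7% of all tested genes. Their median log2 fold change was -0.48, against 0.02 for all tested genes. Among 19 tested regulators 5 were higher and 12 lower. PPARA, the receptor that drives fatty acid oxidation and CYP4 genes in liver, rose from 7.73 CPM ± 0.451 to 29.5 CPM ± 2.07, and PPARG from 13.1 CPM ± 0.663 to 27.3 CPM ± 1.16 (mean ± SD, n = 4 each). NFE2L2, which encodes the stress factor NRF2, did not pass (adjusted p = 0.472), and KEAP1, its inhibitor, fell from 55.2 CPM ± 1.85 to 42.0 CPM ± 1.97. Of 18 NRF2 target genes 5 were higher and 11 lower. Beside NQO1, the gene ME1, which supplies NADPH, fell by 2.85 on the log2 scale, and the larger rises were in PIR (1.15), the ferritin light chain FTL (1.03) and the cystine carrier SLC7A11 (0.71). The groups of each of these 4 genes did not overlap.

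Of 39 tested oxidation, reduction and hydrolysis genes outside the member families, 11 were higher and 26 lower. PON3, a lactonase, had 0 counts in every knockdown library against 2.87 CPM ± 0.355 in control (SD, n = 4), at least 21.2-fold lower. It had enough counts to be tested only through control, so it could only be called lower. CYB5R1 rose 2.23-fold. DHRS2, a mitochondrial dicarbonyl reductase named after its values were seen, had a higher level per kilobase than any member (550.8 CPM in control, against 66.6 for CYP51A1) and fell from 4162 CPM ± 111 to 1041 CPM ± 19.2, and the epoxide hydrolase EPHX1, also named afterwards, fell to 27.8 CPM ± 0.407 (log2 fold change -2.15). Of 33 tested conjugation and cosubstrate genes, 7 were higher and 24 lower. Both enzymes that make PAPS, the sulfate donor of the SULT family, were lower: PAPSS2 fell from 3.26 CPM ± 0.457 to 0.356 CPM ± 0.0969, and PAPSS1, named afterwards, from 79.3 CPM ± 2.44 to 56.7 CPM ± 2.65. STS, which removes sulfate from steroids, rose 5.30-fold, from 28.2 CPM ± 2.02 to 149.6 CPM ± 2.85. Of 3 listed relatives of MGST in the MAPEG family, PTGES rose 3.22-fold and LTC4S 2.06-fold, while ALOX5AP, too low to be tested, had 6, 2, 2 and 5 counts in control and 1, 0, 0 and 0 in knockdown. HNMT, which methylates histamine, fell 7.03-fold, and GGT1, listed under 2 identifiers, fell by 3.15 on the log2 scale under the first and by 0.36 under the other. GGT1 under the first shares 306 exon bases on the same strand with SNRPD3, which averaged 2818.9 counts.

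Levels of different genes were compared per length, as CPM per kilobase of merged exons in GENCODE 29. In control the order began with CYP51A1 (66.6 ± 0.961), AKR1A1 (50.3 ± 1.63), GSTM3 (50.1 ± 1.56), ALDH3B2 (40.1 ± 1.21) and GSTK1 (31.3 ± 1.58), with SD over 4 libraries. AKR1A1 and GSTM3 did not differ beyond their spread. In knockdown it began with CYP51A1 (53.1 ± 0.541), GSTM3 (41.5 ± 1.91), ALDH4A1 (35.2 ± 0.695), GSTK1 (30.1 ± 0.882) and AKR7A2 (23.6 ± 0.889), and the libraries of these neighbours in the order did not overlap. AKR1A1 stood at rank 7 there, level with ALDH9A1 (16.9 ± 0.875 and 16.8 ± 1.08), and ALDH3B2 was not among the first 8. Merged exons include rare long isoforms, so the order is approximate.

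Promoter letters were counted for the 90 members found in the RefSeq windows of GRCh38.p14, which hold 117 windows since some genes have several starts; the other 23 members have none there. The forkhead core TGTTTAC was in 5 of the 117 member windows (4.274%), beside 3.423% of all windows. It was in 1 of 38 windows of genes called higher and in 1 of 31 of genes called lower. GCGTG was in 36 member windows (30.77%, against 36.54% of all windows), TGACNNNGC in 16 (13.68%, against 13.35%) and AGTTCA in 21 (17.95%, against 10.45%). Both strands were read, and no match says only that the letters are not in this window.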

How the data were processed

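RNA sequencing (Trizol extraction, Illumina mRNA libraries, paired reads of 101 bases, per the labels' protocols) covered 4 control and 4 FOXA1 knockdown libraries of SKBR3 cells. The authors deposited whole numbers per Ensembl gene. The submitters' processing notes name hg38, FastQC, Salmon 1.9 and DESeq2 3.16 without a role, so the deposited values are read here as rounded estimated counts, which divide reads among near-identical genes. The annotation and whether strand was used are not given in the sources used here.

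Groups came from the sample titles. The whole table was fitted in R 4.3.3 with edgeR 4.0.16: filterByExpr with a minimum of 10 counts and a total of 15 (16430 of 30434 rows kept), TMM scaling, robust glmQLFit, glmQLFTest, and Benjamini-Hochberg adjustment over all tested genes at a threshold of 0.05, with a prior count of 0.125. Standard errors come from the spread of log2 CPM with 0.5 added to counts. A gene at 0 in a whole group has its fold bounded against 3 counts per library; where each library of a group had 3 or fewer, the ratio of summed counts has an exact Clopper-Pearson interval. Intervals and floors cover counting error only. For each named member without overlap, an exact two-sided permutation test, which has 70 ways to assign 4 of 8 libraries, gave 0.0286, the smallest p it allows.

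Named members are, per family, the one with the highest CPM, up to 4 rises and 4 falls with a mean of at least 50 counts in a group and no overlap, duplicated clusters, and those near 0 in a whole group. Named companions are up to 3 per list and direction plus AHR, NFE2L2, KEAP1, NQO1 and POR. Further members are given beside them. Members and lists were chosen with earlier results of these data known. Positions are from GENCODE 29. The fit was tested on simulated data. Alternatives were other scalings and filters, DESeq2 1.42.0, limma voom (3.58.1), no robust estimation, a replicate block, each library left out, and, chosen after seeing the data, removal of the median shift of the 50 nearest tested genes.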

Additional observations from a re-analysis of the deposited data

Results flagged for a closer look

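Among the named members, 87 groups of 4 libraries were examined for a library whose gap to its nearest neighbour was a larger share of the group's range than Dixon's 95% critical value, and 5 were picked out, where chance gives about 4.35 (about 1 in 20). CYP1A2 was high in control replicate 4 (2.07 CPM, against 0.997 to 1.14 in the other controls, gap ratio 0.862). CYP4F8 was high in the same library (2.80 CPM against 2.01 to 2.09, ratio 0.905), and so was CYP11A1, whose 3 control counts all fell there while the other controls had 0 (ratio 1.0). CYP4B1 was low in knockdown replicate 1 (1.32 CPM against 1.62 to 1.68, ratio 0.834). CYP51A1 was low in knockdown replicate 2 (187.3 CPM against 190.9 to 191.5, ratio 0.857).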

How the results depend on the processing

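Of 44 named members followed through 18 alternatives, 39 kept their direction and their side of the threshold in each alternative that tested them. The filter at a mean of 50 counts did not test all of them, and CYP2S1 and CYP26A1 were among those left out. Members called ranged from 26 to 28 higher and from 30 to 31 lower when each library was left out in turn. A filter at a mean of 50 counts left 53 members, of which 11 rose by at least 2-fold, against 19. The median log2 fold change of the members was -0.0614 with library totals only, 0.239 with no filter on low counts and -0.259 with the filter at 50, and lay between -0.188 and -0.106 with a library left out. Scaling moved the median of all genes by at most 0.084. GSTM2, not called, turned to 0.00155 with the regional shift removed. SULT1A3, not called, lay between -0.066 (without knockdown replicate 1) and 0.216 (without knockdown replicate 4), was -0.0413 without knockdown replicate 3 and turned to -0.0826 with the regional shift removed, and SULT1A4 passed (adjusted p = 0.0211 by edgeR, log2 fold change 1.86) without robust estimation; the cause was not tested. Same-numbered libraries of the groups did not deviate together (correlations of -0.0307 to 0.0563). The labels do not say what the numbers mark, and low correlations cannot exclude a shared preparation with small effects. With a replicate block 28 members were higher and 31 lower, 12453 genes were called, and no call of a named member changed.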
